A study of Mus musculus with 11 samples.

Results

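A set of 32 genes that mark the enteric nervous system, 29 of neurons and 3 of glia, was followed in ileum from mice on dextran sodium sulfate, an agent that injures the gut lining. The 32 symbols were listed by name, with earlier results of these data known, and all of them had a row in a table of 31168 genes. Each level is given in CPM, counts per 1000000 counts of the library after scaling by the trimmed mean of M values (TMM). With a mean of at least 1 CPM over the 11 libraries, 28 genes counted as measured, 26 of neurons and 2 of glia. The lowest measured genes were Sox10 at 1.07 CPM and Nefl at 1.11 CPM, and the highest of those left out were Elavl3 at 0.996 CPM and Nefm at 0.890 CPM, with S100b at 0.752 CPM and Cartpt at 0.353 CPM below them.

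All 11 mice carried the floxed allele of H2-Ab1, a chain of the antigen-presenting protein MHC class II, and all received dextran sodium sulfate. The 6 mice called WT were H2-Ab1 fl/fl; Villin:Cre-, and the 5 called dIEC were H2-Ab1 fl/fl; Villin:Cre+. The Villin promoter drives Cre in the intestinal epithelium, so neurons and glia are not its target. No untreated mice were analysed here, ages, sexes, cages, litters and batches were not given, and each library is total RNA from the whole wall of 2 cm of distal ileum of 1 mouse. The series' design text writes Cre- for both groups, and the genotype labels of the samples were followed. Each p-value of a group comparison sets the difference between groups against the variation between these 11 libraries. Each p-value of a correlation comes from permuting all 11 libraries without regard to group.

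As background, the enteric nervous system is a network of neurons and glia within the gut wall, with one plexus between the muscle layers and another beneath the mucosa. Its motor neurons act on smooth muscle, excitatory ones through acetylcholine and tachykinins and inhibitory ones through nitric oxide and vasoactive intestinal peptide. Enteric glia surround these neurons and carry Gfap, S100b and Sox10, while the receptor Ret guides the colonisation of the gut by their precursors. Because the neurons lie beside the muscle, each level was also read against Myh11, the myosin heavy chain of smooth muscle. In whole tissue, fewer neurons and less RNA per neuron cannot be told apart.

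Promoter sequence was taken from RefSeq on GRCm38.p6, whose table matched 23 of the 32 genes with 31 windows. Its windows of 300 bases run from 250 bases before to 50 bases after the start site, and the letters TGACGTCA, the cyclic AMP response element, its shorter core TGACGT, and TTCAGCACC, the left part of the RE1 element of neuronal genes, were searched on both strands. The full element was found in 3 of these 31 windows, of Scg2, Syn1 and Cartpt, against 1.79% of all 32841 windows. The core, which also lies inside the full element, was found in 5 of the 31 windows, those 3 with Vip and Elavl4, against 7.51% of all windows. The RE1 letters were found in 2 of the 31 windows, of Scg2 and Syn1, against 0.371% of all windows. The 3 promoters shown, chosen with gene levels known, hold matches in a peptide gene, a granule gene and a synaptic gene. They run from 250 bases before to 2 bases after the start site, 5′ to 3′ on the gene's strand, with the matched letters in capitals, at chr10:5638968-5639219 (plus strand), chr1:79440025-79440276 (minus strand) and chrX:20920917-20921168 (minus strand).
Vip: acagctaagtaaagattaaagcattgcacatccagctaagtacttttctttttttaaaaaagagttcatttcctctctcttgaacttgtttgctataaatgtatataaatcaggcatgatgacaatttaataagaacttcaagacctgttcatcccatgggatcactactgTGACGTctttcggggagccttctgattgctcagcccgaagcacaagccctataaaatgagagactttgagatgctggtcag
Scg2: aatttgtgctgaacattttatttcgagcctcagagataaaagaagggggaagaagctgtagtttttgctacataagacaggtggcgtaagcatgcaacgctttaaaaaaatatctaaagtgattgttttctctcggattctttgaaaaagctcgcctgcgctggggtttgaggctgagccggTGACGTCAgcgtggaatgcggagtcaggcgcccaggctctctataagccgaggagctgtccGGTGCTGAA
Syn1: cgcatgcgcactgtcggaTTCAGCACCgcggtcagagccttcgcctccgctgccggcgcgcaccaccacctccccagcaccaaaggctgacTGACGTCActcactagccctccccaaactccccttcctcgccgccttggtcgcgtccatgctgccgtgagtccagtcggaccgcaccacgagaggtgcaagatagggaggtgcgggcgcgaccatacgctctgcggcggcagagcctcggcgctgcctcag

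With the first base of the transcript as position 1 and no position 0, the capitals lie at -79 to -74 in Vip. In Scg2 they lie at -68 to -61 and, with the RE1 letters on the opposite strand, at -7 to 2. In Syn1 the RE1 letters lie at -232 to -224 and the cyclic AMP element at -159 to -152. The core in Elavl4 lies at -58 to -53, on the opposite strand. A match describes these letters and was not tested as a binding site.

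The 11 libraries held 6603965 to 9681698 counts each, of which protein-coding genes other than Lars2 took 22.9% to 37.3%. The targeted gene H2-Ab1 had a mean of 83.1 ± 27.4 CPM (SD) over the 6 WT mice and of 26.0 ± 9.87 CPM over the 5 dIEC mice, with no overlap and an exact 2-sided permutation p of 0.004329, the smallest these group sizes allow. Its adjusted p by edgeR with Benjamini-Hochberg was 0.361. Myh11 lay at 876 to 1875 CPM in WT and at 583 to 1249 CPM in dIEC, with dIEC replicate 1 the lowest. Most neuron and glia genes rested on few counts, such as 19 to 89 for Snap25 and 5 to 17 for Gfap, while Map1b had 195 to 708.

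Neuron genes averaged lower in dIEC than in WT, but none of them passed the test over all genes. Of the 24 measured genes with enough counts to be fitted, 21 had a log2 fold change (dIEC over WT) below 0, against 51.2% of all 15911 genes tested (48.8% lay above 0). The median was -0.42 for the 23 neuron genes and -0.01 for all genes. At an unadjusted p under 0.05, 8 of the 24 were lower and 0 were higher, where 5.79% of all genes were lower and 4.87% higher. These were Snap25, Ncam1, Gal, Syt1, Tubb3, Map1b and Map2 among neuron genes, and Gfap, which met the limit of measurement mainly through WT. At an edgeR p adjusted by Benjamini-Hochberg 0 of the 24 passed 0.05, where 0.00628% of all genes (1 gene) did, and 0 passed by DESeq2, where 0.0126% passed as lower and 0.0566% as higher. The lowest adjusted p was 0.427 by edgeR and 0.346 by DESeq2. No gene of the 24 separated the groups without overlap, where 0.333% of all genes did with dIEC lower and 0.233% with dIEC higher. The count of 8 was 12 of 23 without WT replicate 8, 7 of 27 without dIEC replicate 1 and 4 of 23 without WT replicate 4. The count filter was rerun each time, so the genes tested differ between these fits. The share of all genes at this unadjusted p was not counted in these fits. Without WT replicate 8 the table as a whole shifted, with 319 of all genes passing the adjusted p of edgeR. With library size alone as the scale, the medians were -0.22 over all genes and -0.66 over the 24.

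**Figure D1:**
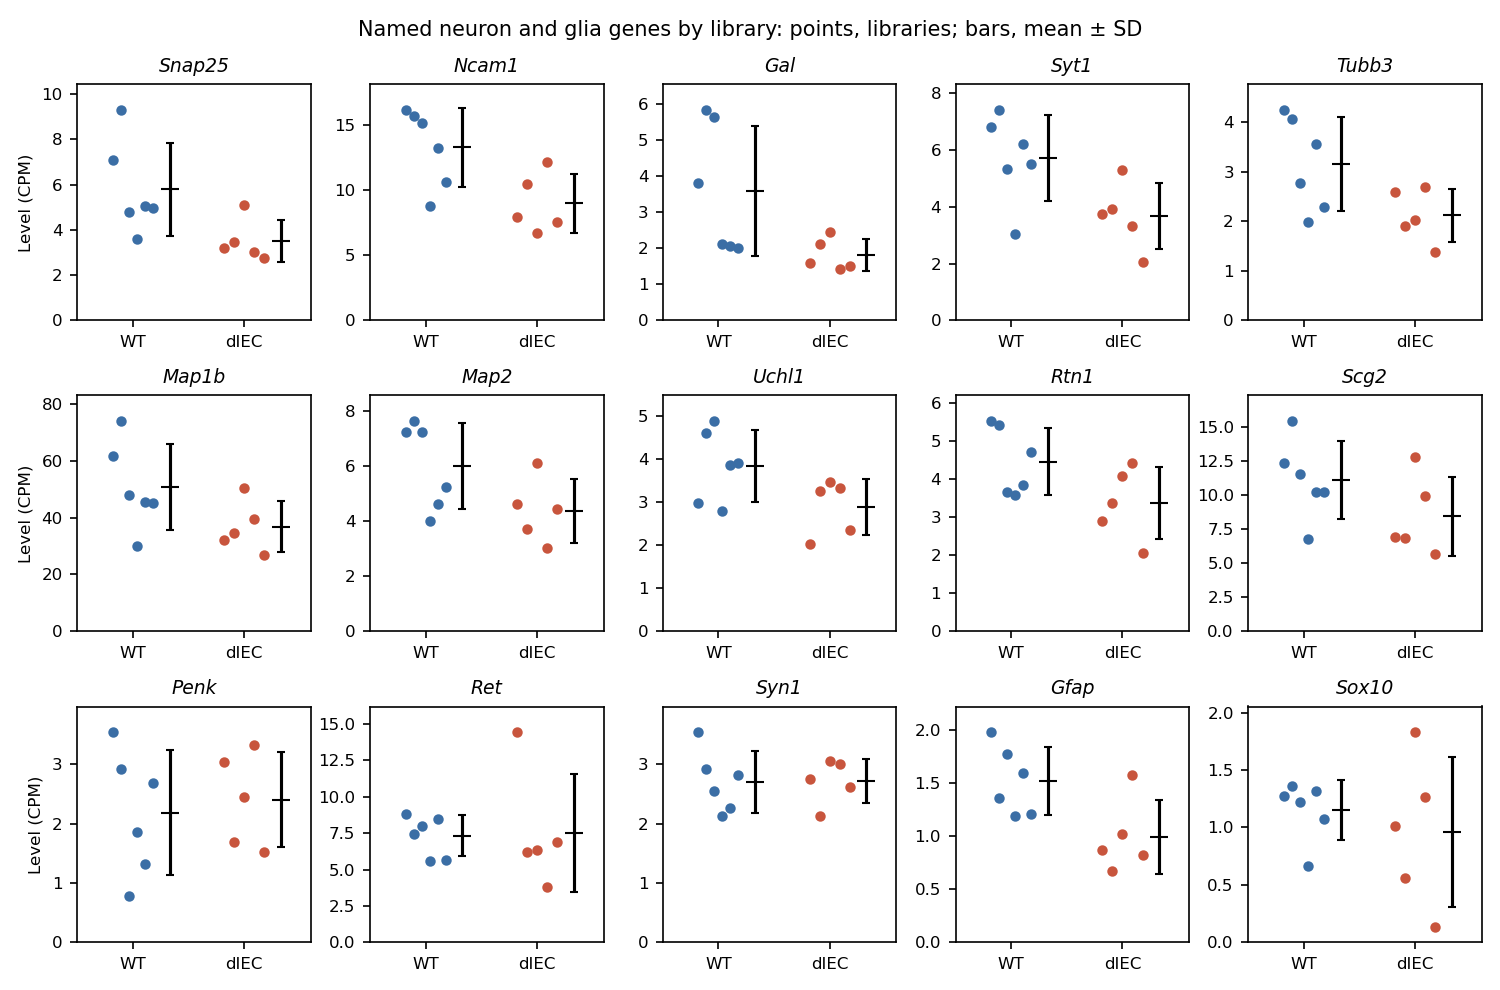
CPM (linear axis from 0) of 13 neuron genes and the glia genes Gfap and Sox10 in each WT (blue) and dIEC (red) library, with bars for mean ± SD (n = 6 and n = 5). The groups overlap in every panel; Ret has 1 high dIEC library at 14.4 CPM.

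Of the 4 genes of synaptic vesicles and their release in the set, Snap25, Syt1 and Syn2 averaged lower in dIEC and Syn1 did not, and none passed the adjusted test. Snap25, a SNARE protein that drives fusion of vesicles with the membrane, ran from 3.58 through a median of 5.02 to 9.30 CPM in WT. In dIEC replicates 1, 3, 5, 6 and 11 it stood at 3.18, 3.48, 5.09, 3.01 and 2.76 CPM. All but 1 of these 5 lay below the lowest WT library, and dIEC replicate 5 lay among the WT values. The log2 fold change was -0.75 ± 0.25 (SE), with a 95% interval of -1.28 to -0.22 and an adjusted p of 0.427 (edgeR, Benjamini-Hochberg).

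Syt1, the calcium sensor of vesicle release, had a lowest, median and highest WT level of 3.05, 5.85 and 7.42 CPM. Its dIEC libraries stood at 3.76, 3.93, 5.29, 3.32 and 2.07 CPM, so all but the lowest of them lay within the WT range. The difference in Syt1 was -0.66 ± 0.24 on the log2 scale, with an adjusted p of 0.427. Syn1, which tethers synaptic vesicles, had a lowest, median and highest WT level of 2.12, 2.69 and 3.55 CPM, and dIEC levels of 2.75, 2.13, 3.05, 3.01 and 2.62 CPM. All dIEC values of Syn1 lay inside the WT range, and its log2 fold change was -0.00 ± 0.19 with an adjusted p of 0.996. Syn1 lies antisense to Araf, which had 2533 counts against 228 for Syn1, and the strand setting of the counting was not given, so its level is uncertain. Vamp2, the vesicle partner of Snap25 and no gene of the set, averaged 20.8 ± 2.90 CPM (WT) and 21.0 ± 1.32 CPM (dIEC). Syn2, a relative of Syn1, averaged 2.96 ± 0.745 CPM (WT) and 2.44 ± 0.712 CPM (dIEC).

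Cytoskeletal genes of neurons also averaged lower in dIEC, within overlapping groups. Map1b, a microtubule-associated protein of axons, ran from 30.1 through a median of 46.6 to 74.0 CPM in WT. In dIEC it stood at 32.2, 34.6, 50.5, 39.6 and 26.9 CPM. Only dIEC replicate 11 lay below the WT range, and no dIEC library reached the highest 2 WT libraries. For Map1b the log2 fold change was -0.47 ± 0.21 with an adjusted p of 0.447. Map2, its dendritic counterpart, ran from 3.98 through 6.22 to 7.63 CPM in WT and stood at 4.62, 3.71, 6.11, 3.01 and 4.42 CPM in dIEC. The difference in Map2 was -0.47 ± 0.22 on the log2 scale, with an adjusted p of 0.462, and 2 dIEC libraries lay below the WT range.

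Tubb3, the neuronal beta-tubulin, ran from 1.99 through 3.17 to 4.26 CPM in WT and stood at 2.60, 1.91, 2.04, 2.69 and 1.38 CPM in dIEC. Its log2 fold change was -0.59 ± 0.25, with an adjusted p of 0.444 and overlapping groups. Rtn1, a reticulon of the neuronal endoplasmic reticulum, ran from 3.58 through 4.28 to 5.53 CPM in WT and stood at 2.89, 3.37, 4.07, 4.43 and 2.07 CPM in dIEC. The difference in Rtn1 was -0.42 ± 0.21 on the log2 scale, with an adjusted p of 0.483. Stmn2, a regulator of microtubules in growing axons, averaged 5.19 ± 1.85 CPM (WT) and 3.91 ± 0.936 CPM (dIEC), and Prph, an intermediate filament of peripheral neurons, 4.79 ± 1.64 and 4.30 ± 1.38 CPM. For Stmn2 and Prph the difference was smaller than the SD in WT.

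Uchl1, a ubiquitin hydrolase abundant in neuron cell bodies and known as PGP9.5, ran from 2.79 through 3.87 to 4.88 CPM in WT. In dIEC it stood at 2.02, 3.26, 3.46, 3.32 and 2.35 CPM, below the WT range in 2 libraries. Its log2 fold change was -0.43 ± 0.21, with an adjusted p of 0.473. Elavl4, an RNA-binding protein of the Hu family, averaged 3.41 ± 1.26 CPM (WT) and 2.57 ± 0.786 CPM (dIEC).

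The axon growth gene Gap43, the neurofilament gene Nefl and the stathmin gene Stmn3 were measured but had too few counts for the fit over all genes. Gap43 averaged 2.04 ± 0.882 CPM (WT) and 0.958 ± 0.164 CPM (dIEC), with an exact 2-sided permutation p of 0.0390, not adjusted. WT replicates 2, 4, 7 and 12 lay above every dIEC library, and WT replicates 8 and 9 lay among them. Nefl averaged 1.49 ± 0.560 and 0.659 ± 0.513 CPM (exact permutation p 0.0519), and Stmn3 1.72 ± 0.843 and 0.857 ± 0.349 CPM (exact permutation p 0.0866). Gap43, Nefl and Stmn3 each had a dIEC mean below 1 CPM and counted as measured through their WT levels. The limit thus favours a lower dIEC level in these genes, and no conclusion is drawn from their p-values.

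Among signals of the neurons, the peptide gene Gal had the lowest fold change of the 24 genes and Nos1 and Vip lay nearer to 0. Gal encodes galanin and ran from 2.02 through 2.98 to 5.85 CPM in WT, against 1.59, 2.13, 2.44, 1.42 and 1.52 CPM in dIEC. WT replicates 2, 4 and 7, at 3.83, 5.85 and 5.65 CPM, stood above every dIEC library, while WT replicates 8, 9 and 12, at 2.12, 2.07 and 2.02 CPM, lay among the dIEC libraries. The log2 fold change of Gal was -0.99 ± 0.34, with a 95% interval of -1.73 to -0.26 and an adjusted p of 0.427. Scg2, which encodes secretogranin II of dense-core granules, ran from 6.77 through 10.9 to 15.5 CPM in WT and stood at 6.94, 6.85, 12.8, 9.97 and 5.66 CPM in dIEC. Its difference was -0.42 ± 0.23 on the log2 scale, with an adjusted p of 0.496. Scg3, another granin, averaged 2.38 ± 0.351 CPM (WT) and 1.96 ± 0.592 CPM (dIEC).

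Nos1, the neuronal nitric oxide synthase of inhibitory motor neurons, ran from 5.57 through 7.22 to 10.9 CPM in WT and stood at 3.03, 6.74, 9.57, 7.60 and 4.69 CPM in dIEC. Only dIEC replicates 1 and 11 lay below the WT range, and the log2 fold change was -0.28 ± 0.25 with an adjusted p of 0.669. Vip, the inhibitory peptide whose promoter is shown above, ran from 1.99 through 5.80 to 8.98 CPM in WT and stood at 3.61, 3.59, 5.50, 6.65 and 2.76 CPM in dIEC. All dIEC libraries of Vip lay within the WT range, and its difference was -0.36 ± 0.32 on the log2 scale, with an adjusted p of 0.680. Nos1 and Vip were chosen for display after their values were seen.

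Tac1, which encodes substance P of excitatory neurons and is also made by enteroendocrine cells, had 1 library far above the rest. In WT it ran from 1.61 through 2.60 to 4.38 CPM, and in dIEC it stood at 7.51, 1.35, 3.05, 3.17 and 0.967 CPM. The log2 fold change was 0.20 ± 0.44, and -0.43 without dIEC replicate 1. Tac1 too was chosen for display after its values were seen. Penk, which encodes enkephalins, ran from 0.776 through 2.27 to 3.55 CPM in WT and stood at 3.03, 1.68, 2.44, 3.32 and 1.52 CPM in dIEC, inside the WT range. Its difference was 0.14 ± 0.35 on the log2 scale.

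Of the surface proteins, Ncam1 averaged lower in dIEC, and Ret and L1cam had averages close to those of WT. Ncam1, an adhesion molecule of neurons and glia, ran from 8.76 through 14.2 to 16.2 CPM in WT and stood at 7.95, 10.4, 6.72, 12.2 and 7.59 CPM in dIEC. The dIEC libraries 1, 5 and 11 lay below the WT range and none reached the WT median. The log2 fold change of Ncam1 was -0.56 ± 0.19 with an adjusted p of 0.427.

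Ret, the receptor for ligands of the GDNF family, ran from 5.57 through 7.70 to 8.80 CPM in WT and stood at 14.4, 6.18, 6.31, 3.80 and 6.90 CPM in dIEC. Replicate 1 lay above every WT library, and the other 4 lay within or below the WT range. On the log2 scale Ret differed by 0.04 ± 0.27 (adjusted p 0.967), and by -0.33 without dIEC replicate 1. The same library was the highest dIEC library for Chga, a marker of enteroendocrine cells, at 11.6 CPM against 5.09 to 6.49 CPM in the other 4 and 4.60 to 9.21 CPM in WT. Summed over all 19 enteroendocrine genes its level was 92.9 CPM, within the WT range of 70.1 to 113.5 CPM and above the other dIEC libraries at 81.4 to 86.1 CPM. The part of these cells in the levels of Ret and Tac1 was not tested. L1cam, an adhesion molecule of axons, averaged 34.8 ± 3.75 CPM (WT) and 32.6 ± 3.89 CPM (dIEC), a difference of -0.10 ± 0.11 on the log2 scale. Chrna3, a subunit of the ganglionic nicotinic receptor, averaged 2.69 ± 0.701 CPM (WT) and 2.12 ± 0.562 CPM (dIEC).

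Glial genes were near the limit of measurement. Gfap, the glial filament protein, ran from 1.19 through 1.48 to 1.99 CPM in WT and stood at 0.867, 0.674, 1.02, 1.58 and 0.829 CPM in dIEC. All dIEC libraries except replicate 6 lay below the WT range. Its log2 fold change was -0.64 ± 0.27, with an adjusted p of 0.442 (edgeR, Benjamini-Hochberg). Gfap lay above 1 CPM in every WT library but not in dIEC replicates 1, 3 and 11. Its inclusion thus rested mainly on WT, which favours a lower dIEC level. Sox10, the transcription factor of glia and their precursors, had 1 to 14 counts a library and was not fitted. It ran from 0.664 through 1.25 to 1.36 CPM in WT and stood at 1.01, 0.561, 1.83, 1.27 and 0.138 CPM in dIEC, with an exact 2-sided permutation p of 0.416. S100b, below the limit of 1 CPM, averaged 0.648 ± 0.210 CPM (WT) and 0.877 ± 0.393 CPM (dIEC).

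Levels of different genes are compared only per length of exon. Per kilobase, L1cam had the highest mean level of the 32 genes at 4.60 CPM per kb, followed by Scg2 at 3.93, Gal at 3.54, Map1b at 2.80 and Prph at 2.29 CPM per kb. The synaptic genes stood lower, Snap25 at 0.700 and Syt1 at 0.574 CPM per kb. The glial gene Gfap stood at 0.304 CPM per kb and Sox10 at 0.349 CPM per kb, beside 148 CPM per kb for Myh11.

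**Figure D2:**
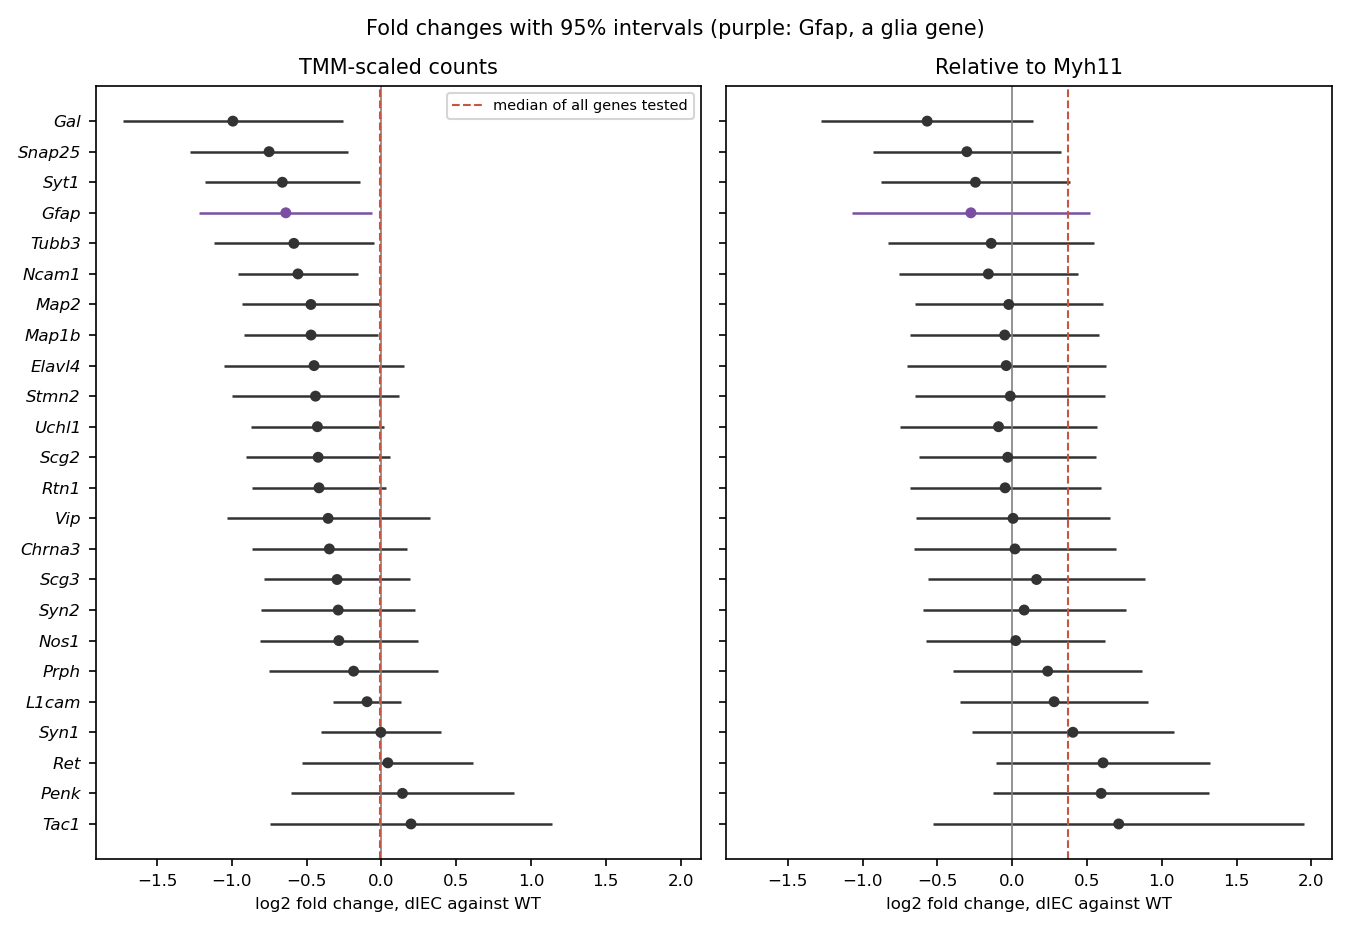
Log2 fold change, dIEC over WT (points), with 95% intervals (lines) for the 24 genes fitted, from TMM-scaled counts (left) and relative to Myh11 (right); the dashed line is the median of all genes tested. On the left 21 of the 24 points lie below 0, and on the right 13 do.

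Relative to Myh11, the fold changes of the neuron genes lay around 0. When the Myh11 count of each library took the place of library size, 13 of the 24 genes had a fold change below 0, against 10.9% of all genes, whose median was 0.37. The median of the 23 neuron genes was -0.01. At an unadjusted p under 0.05, 0 of the 24 genes were lower and 0 were higher, where 0.138% of all genes were lower and 10.9% higher. No gene of the 24 passed the adjusted p of edgeR, where 0.00629% of all genes did. None separated the groups without overlap, where 0.0377% of all genes did with dIEC lower and 0.126% with dIEC higher. Leaving out dIEC replicate 1, the library lowest in Myh11, gave 21 genes below 0 (of 27 tested). Their median was -0.19 and the all-gene median 0.18. The count filter was rerun without this library, so the 27 genes are another set than the 24. The change from 13 to 21 thus mixes the library left out with the genes let in. Leaving out WT replicate 7 gave 8 of 23 genes below 0 and a median of 0.09. The noise of the Myh11 count itself is common to all genes in this fit.

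Single genes showed how the ratio differed between libraries. Per 1000 Myh11 counts, Snap25 lay between 4.09 and 4.96 in all 6 WT libraries, although its CPM differed there from 3.58 to 9.30. In dIEC the ratio stood at 5.45, 3.32, 4.08, 2.55 and 3.54, so replicate 1 lay above every WT library and the other 4 below every WT library. The log2 fold change of the ratio was -0.30 ± 0.32, with an adjusted p of 0.555 (edgeR, Benjamini-Hochberg). Map1b averaged 40.7 ± 3.99 per 1000 Myh11 counts in WT and 39.3 ± 9.37 in dIEC, Nos1 6.29 ± 1.28 and 6.35 ± 0.890, and Chrna3 2.20 ± 0.400 and 2.20 ± 0.141. For these 3 genes the difference was smaller than the spread between libraries.

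Gal kept the lowest value, with 2.87 ± 1.33 per 1000 Myh11 counts in WT and 1.97 ± 0.538 in dIEC and a log2 fold change of -0.57 ± 0.36 (adjusted p 0.463). Gfap stood at 1.28 ± 0.326 and 1.07 ± 0.351 per 1000 Myh11 counts. The ratio of Ret stood at 24.8 in dIEC replicate 1 and between 3.22 and 8.85 in the other 4, against 6.12 ± 1.42 in WT. Its log2 fold change was 0.61 ± 0.36, and -0.09 without that replicate.

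**Figure D3:**
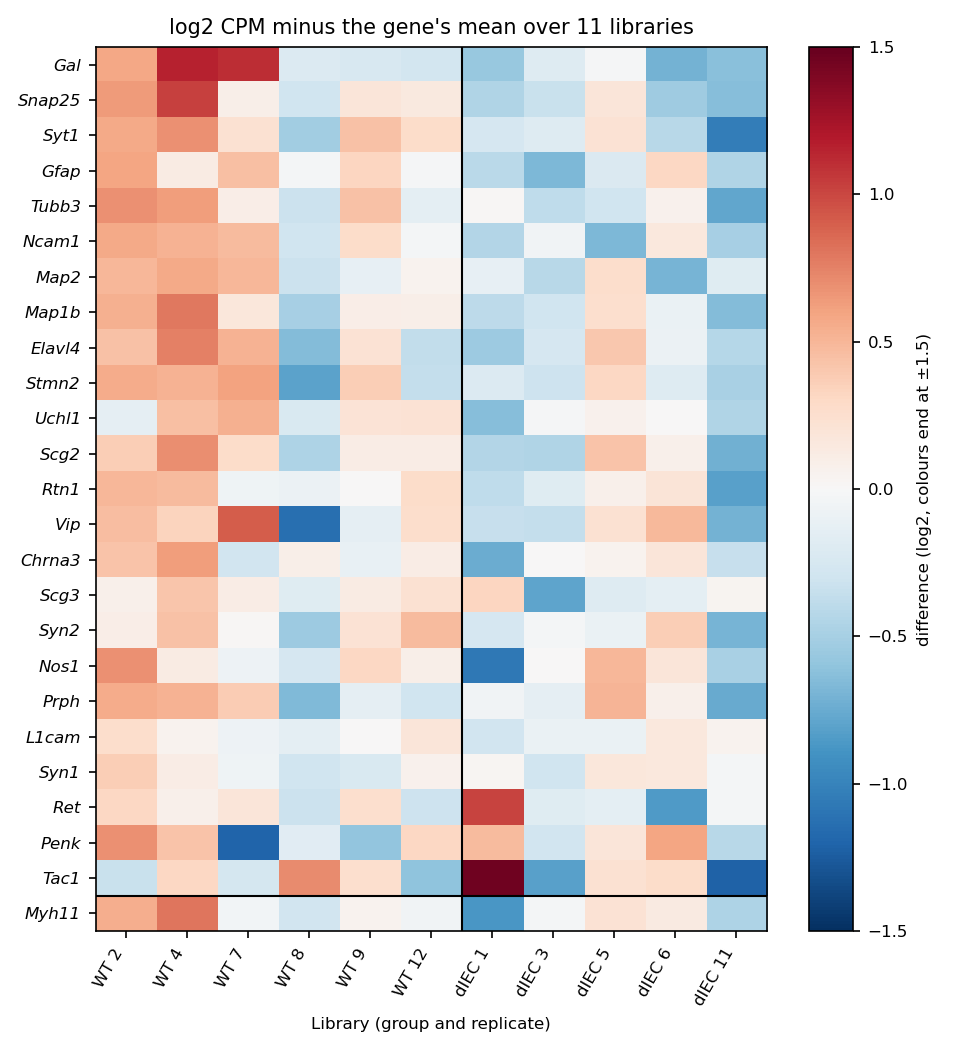
Log2 CPM of each of the 24 genes and of Myh11 (rows) minus the gene's mean over the 11 libraries, by library (columns; WT left, dIEC right of the line); red is above and blue below the mean. WT 2 and WT 4 are red in most rows, and WT 8 and dIEC 11 are blue in most.

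The neuron genes differed between libraries of the same group. WT replicate 4 was the highest library for 9 and WT replicate 2 for 8 of the 23 neuron genes, and dIEC replicate 11 was the lowest for 9. WT replicate 8 was among the lowest 3 libraries for 16 genes. Summed over the 29 neuron genes, levels ran from 134 through 195 to 253 CPM in WT and from 129 through 149 to 188 CPM in dIEC. The lowest WT sum, that of replicate 8, thus lay below the dIEC median. Per 1000 Myh11 counts the sum ran from 135 to 194 in WT and from 140 to 255 in dIEC, and dIEC replicate 1 was the highest library for 15 of the 23 genes.

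Across the 11 libraries most neuron genes went with Myh11. The median Pearson r of log2 CPM was 0.65 over the 23 neuron genes, of which 21 had a positive r, and 0.00 over all genes. With library size alone as the scale the medians were 0.80 over the neuron genes and 0.48 over all genes, so the distance between them depended on the scaling. On the TMM scale, positive r with a permutation p adjusted over all genes under 0.05 was found for 7 of them, where 3.43% of all genes had it. These were Chrna3 (r 0.914), Map1b (0.876), Nos1 (0.844), Scg2 (0.833), Rtn1 (0.821), Snap25 (0.819) and Elavl4 (0.814). Without the 2 libraries farthest from the median of Myh11, r of these 7 ran from 0.723 to 0.963. By Spearman's rho they lay between 0.727 and 0.873, with adjusted permutation p from 0.114 to 0.190. The libraries share tissue composition and scaling, which enter both sides of each r.

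Ret and Tac1 had an r of -0.32 and -0.20, with adjusted permutation p of 0.571 and 0.740. Without WT replicate 4 and dIEC replicate 1, the 2 libraries farthest from the median of Myh11, r was 0.19 for Ret and 0.25 for Tac1, so the negative sign rested on those libraries, and rho over all 11 was 0.02 for both. The median r of the 23 genes was 0.68 without these 2 libraries, 0.74 within the 6 WT libraries, and 0.58 after the mean of each group was taken away. The glial gene Gfap had an r of 0.54. Within the 6 WT libraries, and without a test, r with Myh11 ran from -0.10 for Tac1 to 0.989 for Snap25 among the 23 neuron genes. For Gfap the r within WT was 0.35. The r of neuron genes was not particular to them: the median r was 0.97 over 12 other smooth muscle genes, 0.81 over 5 fibroblast genes, 0.70 over 5 genes of pacemaker and Pdgfra-positive cells and 0.69 over 5 endothelial genes. It was 0.17 over 6 genes of fat and mesentery, -0.24 over 10 enteroendocrine genes and -0.58 over 9 epithelial genes.

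**Figure D4:**
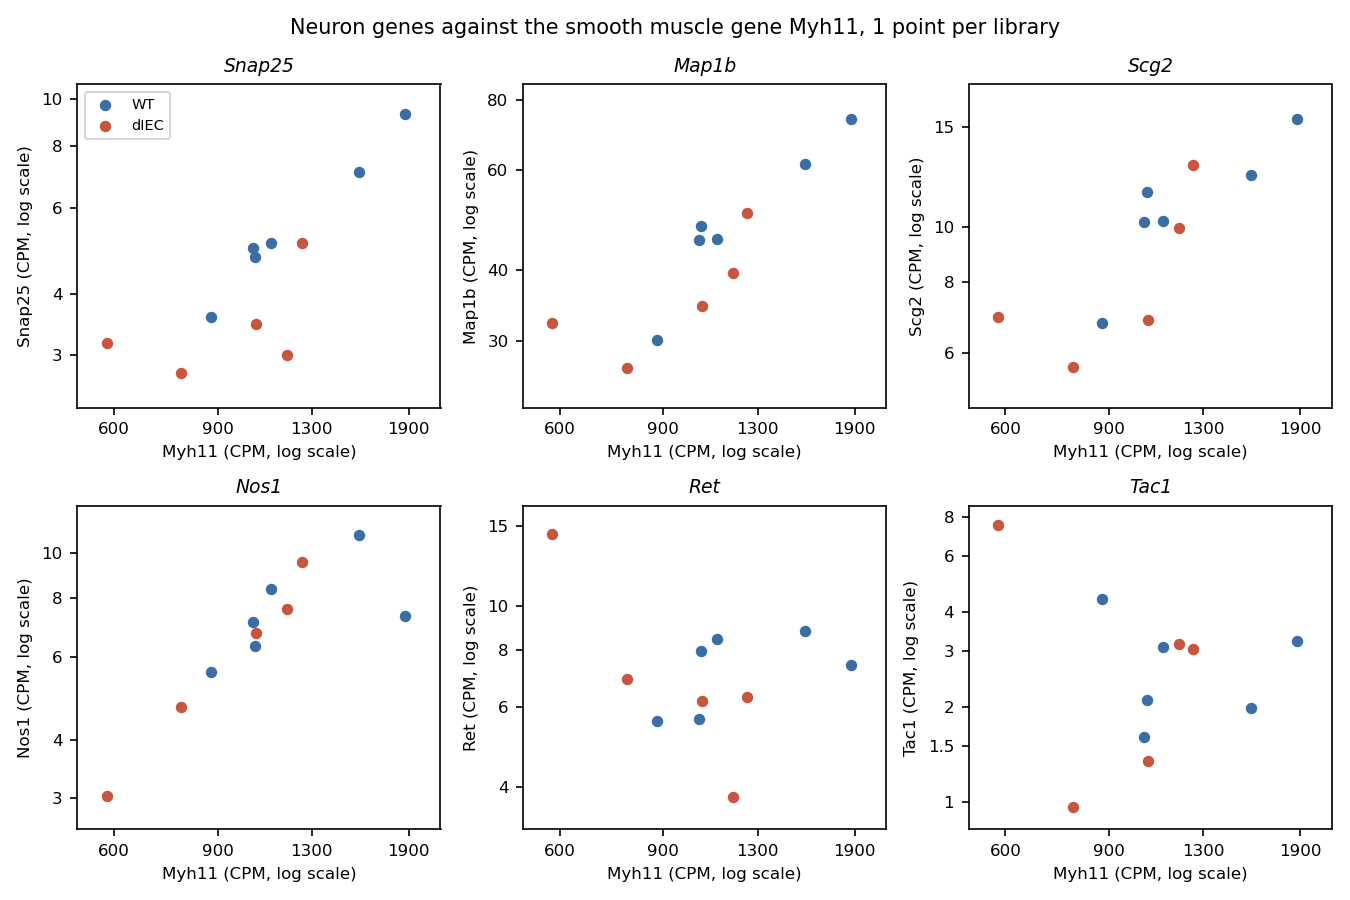
CPM of Snap25, Map1b, Scg2, Nos1, Ret and Tac1 against CPM of Myh11 (both axes log), 1 point per library, WT blue and dIEC red. The first 4 go up with Myh11 across libraries, while in Ret and Tac1 the dIEC library lowest in Myh11 is the highest.

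Further lists of the pathway also had most genes below 0 on the TMM scale, where 51.2% of all genes lay below 0, but not relative to Myh11, where 10.9% did. Of 32 further genes of neuron structure and synapse, 23 were tested, 22 had a log2 fold change below 0 and their median was -0.43. Relative to Myh11, 11 of the 23 lay below 0 and the median was 0.08. At an unadjusted p under 0.05, 5 of the 23 were lower and 0 higher, where 5.79% of all genes were lower and 4.87% higher. Among these 5 were the motor proteins Kif5c (-0.68 ± 0.23) and Kif1a (-0.68 ± 0.27). The synuclein Sncg (-0.73 ± 0.26) and Dpysl3 of growing axons (-0.53 ± 0.21) were also among them. Of 9 tested genes of other transmitters, 8 lay below 0, and 3 relative to Myh11. Among them were Htr3a, a serotonin-gated channel, at -0.92 ± 0.33 and the peptide gene Nmu at -1.34 ± 0.58. Htr3a had 10 to 22 counts in WT and 3 to 12 in dIEC, and Nmu 1 to 31 and 1 to 10. Their inclusion thus rested mainly on WT, which favours a lower dIEC level, and no conclusion is drawn from them. Chat and Slc18a3, which make and load acetylcholine, averaged 0.741 and 0.838 CPM and were not tested. No gene of these lists passed the adjusted p of edgeR.

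Receptors and enzymes that receive these signals in target cells had 10 of 11 tested genes below 0 and a median of -0.34, and 5 of 11 and 0.07 relative to Myh11. P2ry1, the purine receptor of inhibitory transmission, averaged 16.7 ± 1.89 CPM (WT) and 13.4 ± 0.511 CPM (dIEC). The subunits of the nitric oxide receptor, Gucy1b1 and Gucy1a1, had fold changes of -0.65 ± 0.24 and -0.52 ± 0.24 on the log2 scale. Vipr1, a receptor for vasoactive intestinal peptide that is also made by epithelium, had a fold change of 0.46 ± 0.18 from a WT mean of 54.6 CPM. Their adjusted p-values by edgeR ran from 0.427 to 0.456.

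Of 7 tested further glial genes 5 lay below 0, with a median of -0.29, and 3 relative to Myh11, with a median of 0.07. Kcna1, Cdh19 and Scn7a had fold changes of -0.87 ± 0.32, -0.59 ± 0.25 and -0.41 ± 0.15 on the log2 scale. Erbb3, the neuregulin receptor, which is also made by epithelium, lay at 174 ± 58.8 CPM in WT and 245 ± 85.1 CPM in dIEC. Of 11 tested genes of Ret and trophic signalling 8 lay below 0, and 5 did so relative to Myh11. On the TMM scale 0 of the 11 had an unadjusted p under 0.05, where 10.7% of all genes did in either direction. Gfra2, a co-receptor of Ret, and Gdnf, a ligand of that receptor family, had fold changes of -0.73 ± 0.35 and -0.60 ± 0.33. All 5 genes of pacemaker and Pdgfra-positive cells lay below 0, with Etv1 at -0.59 ± 0.16, Kit at -0.32 ± 0.12 and Pdgfra at -0.42 ± 0.20, and 2 of the 5 lay below 0 relative to Myh11. The lowest adjusted p among them was 0.427 by edgeR.

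The markers of muscle, fibroblasts, endothelium and epithelium each lay to one side of 0, and those of enteroendocrine cells and fat did not. All 13 smooth muscle genes lay below 0 with a median of -0.38, all 5 fibroblast genes with a median of -1.20 and all 5 endothelial genes with a median of -0.39. Relative to Myh11, 7 of 12 other smooth muscle, 4 of 5 fibroblast and 2 of 5 endothelial genes lay below 0, where 10.9% of all genes did. Their medians were -0.06, -0.77 and 0.07. In that edgeR fit 3 of the 5 fibroblast genes were lower at an unadjusted p under 0.05, where 0.138% of all genes were. The summed smooth muscle level ran from 2714 to 5663 CPM across WT and from 1541 to 3779 CPM across dIEC libraries, the fibroblast sum from 215 to 734 and from 195 to 360.0 CPM, and the endothelial sum from 27.5 to 69.6 and from 29.5 to 45.8 CPM. All 9 epithelial genes lay above 0, with a median of 0.24 and sums of 1909 to 3255 CPM in WT and 2283 to 3036 CPM in dIEC. Of 6 genes of fat and mesentery 3 lay below 0, with a median of -0.11 and sums of 10.3 to 89.2 and 16.5 to 59.5 CPM. Of 10 tested enteroendocrine genes 7 lay below 0, with a median of -0.17, and Gip, Pax6 and Fev of that list had 0 counts in at least 1 library; the list's sums ran from 70.1 to 113.5 and from 81.4 to 92.9 CPM. No gene of these lists passed the adjusted p of edgeR. The part of these cells in the levels of the neuron genes was not tested, and the values relative to Myh11 only describe a ratio.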

How the data were processed

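Whole-gene read counts were deposited by the authors in 1 table. Alignment to mm10 with TopHat2 is given per the submitters' processing notes, and a directional library kit per the labels' protocols. The counting program, annotation and strand setting remain not given in the sources used here. A row that names no gene, 0.00778% to 0.0147% of counts, was left out. In R 4.3.3, edgeR 4.0.16 (TMM, filterByExpr by group, robust quasi-likelihood F test, Benjamini-Hochberg over 15911 genes, threshold 0.05) compared 5 dIEC with 6 WT libraries, without covariates. A second fit used Myh11 counts as library size. Correlations used log2 CPM with a prior count of 2 and 100000 permutations. Exact permutation tests ran over all 462 splits. DESeq2 1.42.0 was an alternative. The fits were also run on simulated counts with Myh11 held at its expected count, which cannot test the effect of noise in Myh11. The members, lists and tests were chosen with earlier results of these data known. Levels in every library are printed for Gfap, Sox10, the 10 neuron genes with the lowest unadjusted p and the 3 with the highest; of each further list up to 4 genes are named. Gene lengths are exons of GENCODE on GRCm38. L1cam overlaps Arhgap4 on the same strand, and Ncam1, Nos1, Map2, Penk, Syn2, Nefl, Nefm and Uchl1 overlap antisense genes. No libraries of a group were duplicates: chi-square per degree of freedom between counts was 11.4 or more in 25 pairs.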

Additional observations from a re-analysis of the deposited data

How the results depend on the processing

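No gene of the set passed the adjusted p in any alternative of either comparison. The number of all genes passing was 1 as reported, 11 by DESeq2 and 2 with library size alone, and 1 to 319 leaving out single libraries, the highest without WT replicate 8. Relative to Myh11 it was 1 as reported, 3 by DESeq2, 135 without a filter on low counts, 5 with at least 20 counts in at least 5 libraries, 13 with Actg2, 33 with Des and 4 with 13 smooth muscle genes as the reference, and 1 to 945 leaving out single libraries, the highest without WT replicate 8. Genes of the set below 0 relative to Myh11 ran from 8 of 23 without WT replicate 7 to 21 of 27 without dIEC replicate 1. The count filter was rerun each time, so these are different sets of genes. Leaving out WT replicate 8 and dIEC replicate 1 together, chosen after seeing the data, gave 7 genes passing in the first comparison and 249 in the second, and 21 of 27 genes of the set below 0 relative to Myh11. The causes of these shifts were not tested. The unadjusted count of 8 lower genes was 13 of 24 with library size alone, where the median of all genes also lay below 0. It was 5 of 19 with at least 20 counts, 5 of 23 without WT replicate 2 and 5 of 23 without WT replicate 7. With Myh11 as a covariate it was 0 of 24, and the median of the set was -0.17 with 20 genes below 0. The share of all genes at this unadjusted p was not counted in these alternatives. No paired analysis was possible because no replicate number occurs in both groups. Low counts limit Cartpt, S100b, Nefm, Elavl3, Sox10, Gfap, Nefl, Gap43, Stmn3, Syn1, Penk and Scg3, each with under 30 counts in every library.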
